A study of Mus musculus with 15 samples.

Results

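Gene expression was measured by RNA-sequencing in 15 mouse T cell leukemia lines, and 10 of them were compared here: the 5 lines with the highest and the 5 with the lowest expression of 5 Notch target genes. The lines were selected on their own measured values. The mean of log2(CPM + 1) of *Heyl*, *Notch3*, *Dtx1*, *Nrarp* and *Ptcra* was taken in each line, the 15 lines were ranked by this score, and the 5 at each end are called Notch-target-high and Notch-target-low. CPM is the read count of a gene scaled to a fixed total of reads assigned to genes in each library. Adding 1 (the pseudocount) before taking the logarithm keeps values of 0 on the scale and understates the change of weakly expressed genes. All other genes were then compared between the groups, with the genotype in the model, and the comparison was repeated with the line SKO132 left out before ranking.

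All 15 lines were grown from the thymus of leukemic FVB/NJ mice, 1 library per line, in OPTI-MEM with serum and without further treatment. Every line lacks *E2a*. The 8 DKO lines are *E2a*-/- *Lef*F/F LckCre+, in which Cre, driven by the *Lck* promoter in developing T cells, removes the DNA-binding domain of LEF1, and the 7 lines named SKO are labelled *E2a*-/- alone. Each line is a culture of 1 leukemia, so the spread within a group is the spread between leukemias, and a lower fraction of cells expressing a gene cannot be told apart from less RNA per cell. The Notch-target-high group held DKO241, DKO79.9, SKO163.5, DKO192.3 and SKO156.6, which are 3 DKO and 2 *E2a*-/- lines. The Notch-target-low group held DKO548, DKO102.4, DKO713, DKOTu3 and SKO132, which are 4 DKO lines and 1 *E2a*-/- line.

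Reads on the 12545 listed genes numbered 4847970 in DKO79.9, a high line, and between 14477802 and 21681586 in the other 14 lines, so that 3 reads equalled 0.618 CPM in DKO79.9 and 0.138 to 0.207 CPM elsewhere. *Tcf3*, which encodes E2A, was listed at 117 to 243 CPM over the 15 lines, and *Lef1* at 103 to 210 CPM in the DKO lines. A count over the whole gene does not check the loss of a part of it.

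Notch receptors are cut at the membrane when they bind a ligand on a neighbouring cell, and the released intracellular domain joins the DNA-binding protein RBPJ and a Mastermind coactivator to switch on target genes. Thymocytes need this signal to enter the T lineage and to pass the pre-TCR checkpoint, and Notch1 is a frequent oncogene in T cell leukemia. Of the ranking genes, *Notch3* encodes another receptor, *Heyl* a transcriptional repressor of the Hes and Hey family, *Dtx1* the E3 ubiquitin ligase Deltex, *Nrarp* a small inhibitor of the Notch complex, and *Ptcra* the pre-TCR alpha chain.

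Promoters of 4 of the 5 ranking genes (*Dtx1*, *Notch3*, *Nrarp* and *Ptcra*) were found in a table of RefSeq sequences (GRCm38.p6). *Heyl* was not found. *Dtx1* and *Nrarp* had negative rank correlations with *Ptcra* over the 14 lines other than SKO132 (Spearman's rho -0.52 and -0.51). Over all 15 lines rho was -0.23 for each. The 250 bases before the transcription start are shown for *Ptcra*, *Dtx1* and *Nrarp*. They are written in lower case, with each match to TGGGAA, the core of the RBPJ motif, on either strand in capitals. *Ptcra* lies at chr17:46763713-46763962 on the minus strand, *Dtx1* at chr5:120711670-120711919 on the minus strand and *Nrarp* at chr2:25180508-25180757 on the plus strand.

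Ptcra: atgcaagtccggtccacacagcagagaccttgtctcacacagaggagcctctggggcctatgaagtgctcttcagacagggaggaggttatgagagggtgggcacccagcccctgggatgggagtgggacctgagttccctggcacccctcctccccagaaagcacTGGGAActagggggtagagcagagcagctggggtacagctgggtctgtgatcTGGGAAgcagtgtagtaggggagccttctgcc

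Dtx1: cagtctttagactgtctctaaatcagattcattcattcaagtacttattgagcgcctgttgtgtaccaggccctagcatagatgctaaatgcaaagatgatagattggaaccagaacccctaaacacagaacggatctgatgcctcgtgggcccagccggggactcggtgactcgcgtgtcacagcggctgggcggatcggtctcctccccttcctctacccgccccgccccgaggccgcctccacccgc

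Nrarp: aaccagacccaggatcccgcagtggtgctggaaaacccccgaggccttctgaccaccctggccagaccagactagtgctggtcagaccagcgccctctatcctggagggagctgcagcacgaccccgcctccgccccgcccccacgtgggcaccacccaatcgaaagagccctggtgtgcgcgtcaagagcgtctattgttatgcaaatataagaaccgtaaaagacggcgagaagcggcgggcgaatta

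The *Ptcra* sequence held 2 matches, which began 84 and 32 bases before the start. *Dtx1*, *Nrarp* and *Notch3* held 0 in this window. Of all 32851 promoter sequences of this length in the table, 21.6% held at least 1 match and 2.77% held 2 or more. A match is a stretch of letters and was not tested for binding.

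The score fell into a continuous row of 14 lines and 1 line far below them. It was 6.37 in DKO241, 6.28 in DKO79.9, 6.09 in SKO163.5, 6.09 in DKO192.3 and 5.98 in SKO156.6 among the high lines. In the low group it was 5.48 in DKO548, 5.39 in DKO102.4, 5.30 in DKO713, 5.05 in DKOTu3 and 1.16 in SKO132. The 5 lines between them had scores of 5.96 (DKO170.2), 5.92 (SKO115.2), 5.89 (SKO186.5), 5.86 (SKO137.1) and 5.83 (SKO95). The upper boundary therefore separated lines that differed by 0.0213, and the lower boundary lines that differed by 0.344. SKO132 lay 3.89 below DKOTu3, while the other 14 lines spanned 1.32 in all. With SKO132 left out before ranking, the high group kept its 5 lines and SKO95 became the highest of the low lines, 0.0371 below the next line.

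**Figure D1:**
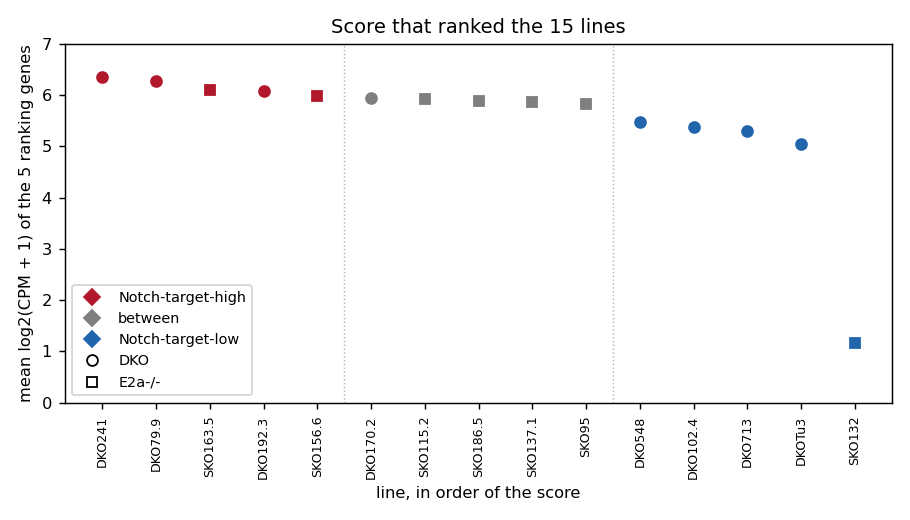
Score (mean log2(CPM + 1) of the 5 ranking genes, y axis) of each of the 15 lines, ordered by the score on the x axis, with colours for the groups, circles for DKO and squares for *E2a*-/- lines. The lines run from 6.37 to 5.05 without a wide gap, and SKO132 stands at 1.16.

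Apart from SKO132, the spread of the score lay mostly in the DKO lines. The 8 DKO lines ranged from 5.05 to 6.37 (SD 0.494), whereas the 6 *E2a*-/- lines other than SKO132 ranged from 5.83 to 6.09 (SD 0.0953). The comparison of high with low lines was therefore mostly one of 3 DKO lines with 4 other DKO lines, and in the *E2a*-/- genotype it set 2 lines against SKO132 alone.

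The ranking genes are given as values only, since they chose the lines. *Dtx1* was at 348 CPM in DKO241, 579 in DKO79.9, 528 in SKO163.5, 199 in DKO192.3 and 321 in SKO156.6, against 72.1 in DKO548, 193 in DKO102.4, 208 in DKO713, 86.6 in DKOTu3 and 0.221 in SKO132. DKO192.3 thus lay below DKO713, and the groups overlapped. *Nrarp* was at 26.6, 60.6, 19.3, 17.5 and 51.8 CPM in the high lines in the same order and at 18.1, 10.7, 6.28, 12 and 0 CPM in the low lines, with DKO192.3 just below DKO548. No *Nrarp* read was counted in SKO132, which allows a level of up to 0.165 CPM. *Heyl* was at 6.21, 11.3, 7.04, 5.38 and 3.73 CPM in the high lines and at 2.47, 2.98, 1.11, 1.63 and 0.165 CPM in the low lines, and it was the only ranking gene whose groups did not overlap.

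*Notch3* varied least among the 14 lines without SKO132 (SD 0.430 on the log2 scale, against 0.776 to 1.11 for the other ranking genes). It was at 632, 460, 509, 677 and 509 CPM in the high lines and at 515, 256, 565, 416 and 32.2 CPM in the low lines, so that DKO713 and DKO548 exceeded 3 of the high lines. *Ptcra* was at 85.5, 12.8, 32.8, 89.7 and 23.2 CPM in the high lines and at 71.0, 54.9, 50.9, 30.7 and 0.165 CPM in the low lines. The lowest of the 14 *Ptcra* values were 8.91 CPM in SKO115.2 and 12.8 CPM in DKO79.9, the line ranked second by the score.

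**Figure D2:**
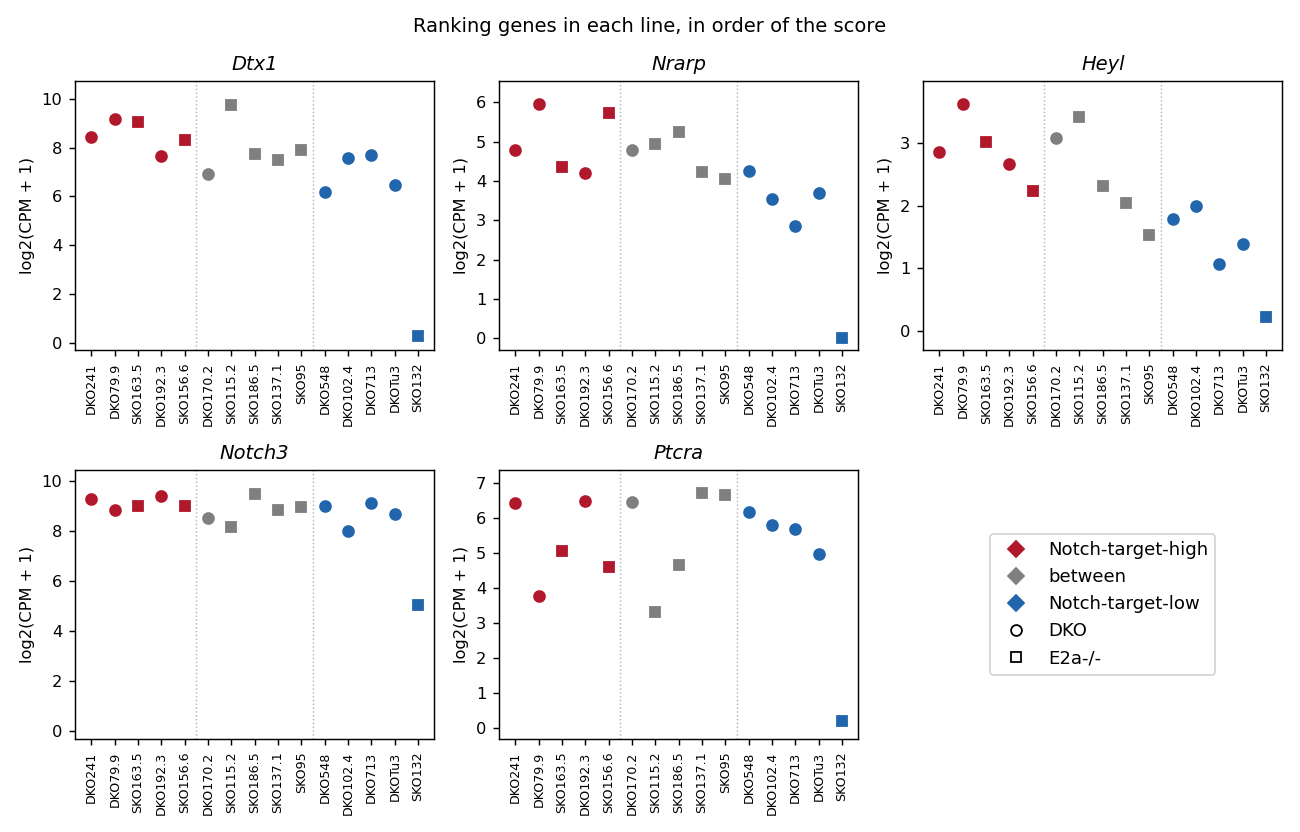
log2(CPM + 1) (y axis) of the 5 ranking genes in each line (x axis, ordered by the score). SKO132 is lowest for all 5 genes, and *Ptcra* is low in DKO79.9 and SKO115.2, where *Dtx1*, *Nrarp* and *Heyl* are high.

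The 5 genes did not order the other 14 lines alike. Spearman's rho over these lines was 0.77 for *Heyl* with *Nrarp*, 0.59 for *Heyl* with *Dtx1* and 0.53 for *Dtx1* with *Nrarp*. It was -0.52 for *Dtx1* with *Ptcra* and -0.51 for *Nrarp* with *Ptcra*, and 4 of the 10 pairs were negative. These correlations are descriptions of 14 lines measured in the same libraries. In 6 other rankings (each gene scaled to the same SD, or each of the 5 genes left out), DKO241 and DKO79.9 were among the 5 highest in all 6, SKO163.5 and DKO192.3 in 4 and SKO156.6 in 2. DKO102.4, DKO713, DKOTu3 and SKO132 were among the 5 lowest in all 6, and DKO548 in 5. The composition of the low group thus depended less on the choice of genes than that of the high group.

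SKO132 also stood apart in genes that did not enter the score. *Notch1*, the receptor most often mutated in T cell leukemia, was at 31.3 CPM in SKO132 and between 830.1 and 2266 CPM in the other 14 lines. *Crebbp*, a histone acetyltransferase recruited by the Notch complex, was at 0.221 CPM against 16.1 to 98.7 CPM elsewhere. *Dlk1*, a membrane protein related to the Notch ligands, was at 699 CPM in SKO132 and at most 12.2 CPM elsewhere. The summed CPM of 9 T cell markers was 2704 in SKO132, between 4237.5 and 5237 in the high lines and at most 4200.5 in the other low lines. Values with SKO132 left out before ranking, given from here on also as without SKO132, are printed for genes whose separation, call or size differed there, and the part of the T cell marker level in the results was not tested.

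Between the 5 high and the 5 low lines, 2 of 12540 genes passed the test and both were lower in the high lines: *Ube2q2*, an E2 ubiquitin-conjugating enzyme, and *Sh3rf3*, a RING-finger protein with SH3 domains. Genes higher in the high lines numbered 0 (0.0% of the genes tested), and the 2 lower genes made up 0.0159%. The test was limma on log2(CPM + 1) with a genotype term, and p-values were adjusted by Benjamini-Hochberg across all 12540 genes, with a threshold of 0.05. At an unadjusted p under 0.05 there were 804 higher (6.41%) and 754 lower genes (6.01%). The edgeR quasi-likelihood test on the whole reads called 0 higher and 2 lower genes (*Sh3rf3* and *Meis2*), and DESeq2 called 213 higher (1.7%) and 241 lower genes (1.92%). High and low lines were fully separated in 168 higher genes (1.34% of the genes tested) and 161 lower genes (1.28%).

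*Ube2q2* (chr9:54996661-55055336 as listed in the table) was at 0.159 CPM in DKO241, 0.412 in DKO79.9, 2.90 in SKO163.5, 0.701 in DKO192.3 and 6.28 in SKO156.6, against 29.0 in DKO548, 39.1 in DKO102.4, 27.2 in DKO713, 35.1 in DKOTu3 and 34.2 in SKO132. Every low line, SKO132 included, was at 27.2 CPM or more, and no high line exceeded 6.28 CPM. The log2 fold change, high minus low, was -4.05 (SE 0.36, limma adjusted p = 0.0114). In the 5 lines between the groups, *Ube2q2* took both levels, with 36.9 CPM in DKO170.2 and 36.2 CPM in SKO137.1, 11.4 CPM in SKO186.5, and 0.207 and 0.0922 CPM in SKO115.2 and SKO95.

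*Sh3rf3* (chr10:58276107-58601664 as listed) was at 0.212 CPM in DKO241, 0.0935 in DKO192.3, 0.0690 in SKO156.6 and 0 in both DKO79.9 and SKO163.5, against 26.3 in DKO548, 23.8 in DKO102.4, 61.5 in DKO713, 32.4 in DKOTu3 and 5.79 in SKO132. The high lines were at the level of a few reads, and the 4 DKO lines of the low group were all at 23.8 CPM or more. The log2 fold change was -4.34 (SE 0.43, limma adjusted p = 0.0157), and it was -4.56 (SE 0.35, adjusted p = 0.00272) with SKO132 left out before ranking. For *Ube2q2* the call was lost there (-2.64, SE 1.03, adjusted p = 0.44), where SKO95, at 0.0922 CPM, was among the low lines. With DKO241 or DKO79.9 taken out of the fit, limma called 0 genes (1625 and 1073 at an unadjusted p under 0.05). *Sh3rf3* was also not called without DKO192.3 or without DKO548, where *Ube2q2* was, and with SKO132 taken out it called 3 higher and 23 lower genes.

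**Figure D3:**
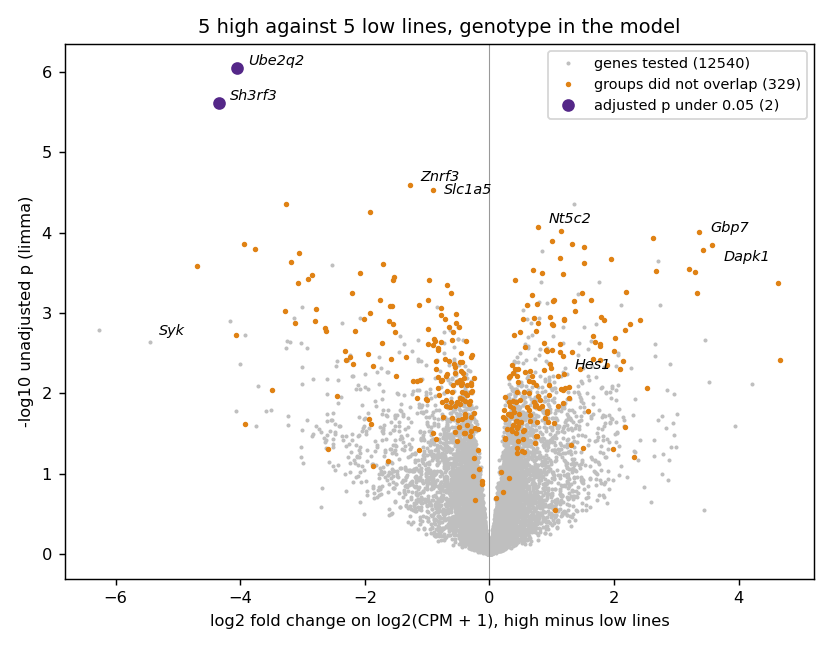
limma log2 fold change (high minus low lines, x axis) and -log10 of the unadjusted p (y axis) of the 12540 genes, with genes whose 2 groups did not overlap in orange and the 2 genes past the adjusted threshold in purple. *Ube2q2* and *Sh3rf3* stand above the remaining genes on the lower side, and no gene on the higher side passed.

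The other lower genes with the lowest p did not pass the threshold. *Znrf3*, a membrane E3 ligase that removes Wnt receptors, was at 28.7 to 51.9 CPM (median 44.9) in the high lines and at 97.4 to 123 CPM (median 103) in the low lines, a log2 fold change of -1.28 (SE 0.17, limma adjusted p = 0.0938). *Slc1a5*, the main glutamine transporter of dividing cells, was at 133 to 188 CPM in the high lines and at 207 to 356 CPM in the low lines (-0.91, SE 0.12, limma adjusted p = 0.0938). Their groups did not overlap. *Slc1a5* was still separated without SKO132 (-0.84, limma adjusted p = 0.0691), while *Znrf3* overlapped, with 32.5 CPM in SKO95 (-0.75, adjusted p = 0.347). *Cecr2*, a bromodomain protein of chromatin remodelling complexes, was at 1.03 to 16 CPM against 27.1 to 105 CPM, and *Fam110b* at 0 to 7.87 CPM against 12.8 to 30.1 CPM, both with an adjusted p of 0.112 in limma. Without SKO132 *Cecr2* was still separated (-4.01, limma adjusted p = 0.0813) and *Fam110b* overlapped (-2.50, adjusted p = 0.455).

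The same held for the genes with the lowest p on the higher side, all with a limma adjusted p of 0.112. *Dapk1*, a death-associated protein kinase, was at 95.1, 86.8, 124, 93.0 and 59.4 CPM in the high lines and at 21.7, 5.18, 9.71, 22.9 and 0.662 CPM in the low lines. *Gbp7*, an interferon-inducible GTPase, was at 11.4 to 34.0 CPM in the high lines and at 0.230 to 4.79 CPM in the low lines. *Padi2*, a peptidylarginine deiminase, was at 15.2 to 24.2 CPM against 5.26 to 8.11 CPM. For each of these genes every high line exceeded every low line. *Nt5c2*, a cytosolic nucleotidase, was at 97.4 to 129 CPM against 59.5 to 77.1 CPM, and *Nrros*, a membrane protein that holds latent TGF-beta, at 117 to 199 CPM against 64.0 to 89.4 CPM. *BC035044* was at 3.50 to 21.2 CPM against 0 to 1.21 CPM. Without SKO132 these genes, other than *BC035044*, did not overlap, at a limma adjusted p of 0.0813 to 0.227. The log2 fold change of *Dapk1* went from 3.58 to 2.16 there, and *BC035044* overlapped, with 82.8 CPM in SKO95 (0.83, limma adjusted p = 0.671).

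With SKO132 left out before ranking, 4 genes passed, 1 higher (0.00797% of 12540) and 3 lower (0.0239%), and the groups did not overlap for 135 higher (1.08%) and 119 lower genes (0.949%). At an unadjusted p under 0.05 there were 736 higher (5.87%) and 588 lower genes (4.69%), and DESeq2 called 153 higher (1.22%) and 189 lower genes (1.51%). The lower genes were *Sh3rf3*, *Pcbp4*, a poly(rC)-binding protein, and *Pkdcc*, a secreted protein kinase, and the higher gene was *Fam107b*. *Sh3rf3* was the 1 gene called with and without SKO132. *Pkdcc* was at 0 to 2.92 CPM in the high lines and at 89.5, 47.4, 126 and 58.9 CPM in the 4 low DKO lines, with 8.11 CPM in SKO95 and 0.0552 CPM in SKO132 (-4.79, SE 0.55, limma adjusted p = 0.0253). *Pcbp4* was at 0.106 to 0.618 CPM against 2.84 to 6.73 CPM in the low DKO lines and 5.99 CPM in SKO95 (-2.23, SE 0.25, limma adjusted p = 0.0232). *Fam107b* was at 359 to 551 CPM against 205 to 237 CPM in the low DKO lines and 173 CPM in SKO95 (1.14, SE 0.12, limma adjusted p = 0.0219). *Fam107b* was highest of all lines in SKO132, at 729.5 CPM, and was not called when that line was among the low lines (0.56, SE 0.30, limma adjusted p = 0.471).

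In the DKO lines alone, a comparison added after the values were seen, 3 high lines were set against 4 low lines and 31 genes passed, 7 higher (0.0558%) and 24 lower (0.191%), 13 of them at an adjusted p under 0.01. The DKO lines of the 2 groups were fully separated in 967 higher genes (7.71%) and 724 lower genes (5.77%). Both genes called over all 10 lines and 3 of the 4 called without SKO132 were among the 31. These DKO lines were in those comparisons too, in the same groups, so the shared calls are no separate support. The comparison of DKO lines alone holds no *E2a*-/- line, and its genes, named here after their values were seen, show what the 4 low DKO lines had in common.

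The gene with the lowest adjusted p among the DKO lines was *Syk*, a tyrosine kinase that relays the pre-TCR signal. *Syk* was at 181 CPM in DKO548, 160.2 in DKO102.4, 336 in DKO713 and 306 in DKOTu3, and 0 reads were counted in DKO241, DKO79.9 and DKO192.3 together. Against 3 reads over these high lines, which equal 0.0666 CPM, the level in the low DKO lines was at least 3722-fold higher (limma adjusted p = 0.000195). *Syk* was also at 0 in SKO132 and between 0.0538 and 3.37 CPM in the other *E2a*-/- lines, and DKO170.2, a line between the groups, had 20.2 CPM. High *Syk* was thus seen in 4 of the 15 lines, all of them low DKO lines, and over all 10 lines the difference was called by DESeq2 (adjusted p = 1.22e-05) and not by limma (-5.44, SE 1.31, adjusted p = 0.193).

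*Meis2*, a homeodomain transcription factor, had the same distribution. It was at 22.0, 14.6, 17.3 and 18.3 CPM in the low DKO lines and at 0 to 0.191 CPM in the other 11 lines, SKO132 included (DKO lines alone -4.15, SE 0.23, limma adjusted p = 0.000807). *Nkd1*, an inhibitor that binds Dishevelled, was at 72.4, 78.4, 66.5 and 198 CPM in the low DKO lines, at 0.234 to 2.71 CPM in the high DKO lines and at 0.552 to 14.5 CPM in the *E2a*-/- lines (-5.44, SE 0.50, limma adjusted p = 0.00898). *Tnfrsf19*, a receptor of the TNF family, was at 39.9 to 70.1 CPM in the low DKO lines and at 0.412 to 1.43 CPM in the high DKO lines, but reached 44.5 CPM in SKO115.2 and 54.8 CPM in SKO95 (-4.83, SE 0.31, limma adjusted p = 0.0019). *Ace*, the angiotensin-converting enzyme, was at 24.1 to 34.3 CPM in the low DKO lines and had 1 read in all in the high DKO lines, a ratio of 1286 with a 95% counting interval of 231 to 50811, and 103 CPM in SKO115.2.

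Of the 7 genes higher in the high DKO lines, *Padi4*, another peptidylarginine deiminase, was at 3.45, 2.88 and 4.02 CPM in DKO241, DKO79.9 and DKO192.3 and had 0 reads in the 4 low DKO lines together. This was at least 94.6-fold higher than 3 reads over the low DKO lines would be (limma adjusted p = 0.0063). *Cbr1*, a carbonyl reductase, was at 10.0 to 17.7 CPM against 0 to 2 CPM, *Jup*, the junction protein plakoglobin, at 3.30 to 8.39 CPM against 0.0489 to 0.158 CPM, and *Reck*, a membrane inhibitor of metalloproteinases, at 2.87 to 4.81 CPM against 0 to 0.293 CPM. *Jup* was at 20.5 CPM in SKO132, above every other line.

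**Figure D4:**
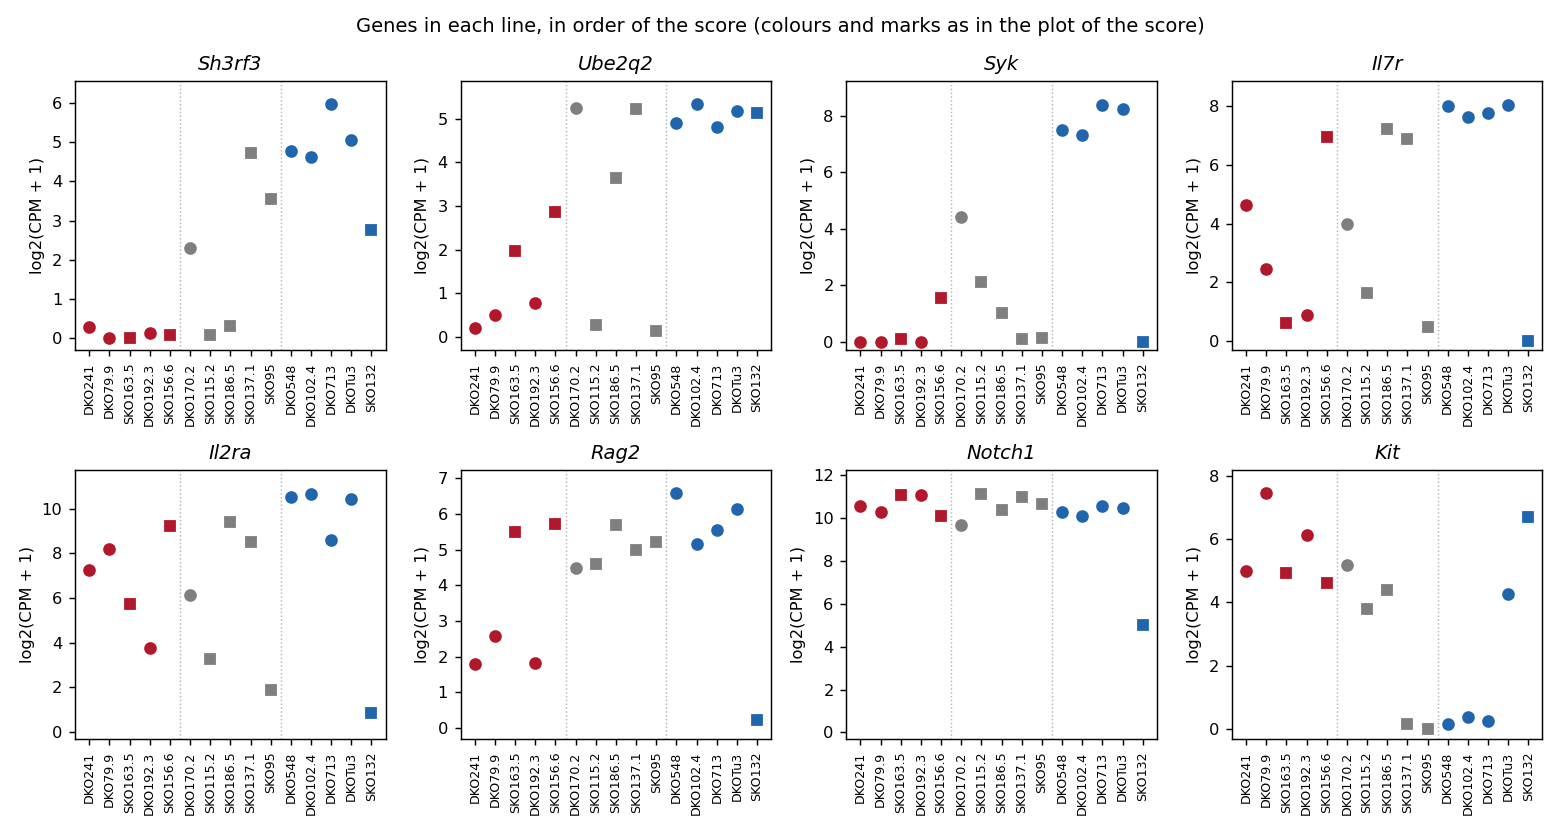
log2(CPM + 1) (y axis) of 8 genes in each line (x axis, ordered by the score), with colours and marks as in the plot of the score. *Syk* and *Il7r* were at 160.2 CPM or more and 197 CPM or more in the 4 low DKO lines, and SKO132, also a low line, had 0 CPM of both.

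Among the other Notch target genes, 17 of 19 were listed and 0 passed in limma or edgeR over the 10 lines, with 2 higher and 2 lower at an unadjusted p under 0.05. DESeq2 called 2 as higher, *Hes1* and *Trib2*, and without SKO132 it called both again and *Igf1r* as lower (-1.25, DESeq2 adjusted p = 0.00172). Over the 10 lines 6.41% of all genes were higher and 6.01% lower at an unadjusted p under 0.05. DESeq2 called 1.7% of all genes higher and 1.92% lower, and 1.22% and 1.51% without SKO132. SKO132 was strictly the lowest of the 15 lines for 8.76% of all genes tested and for 7 of these 17. The groups overlapped for all 17. Their median log2 fold change was 0.14, beside 0.01 over all genes, and -0.15 with SKO132 left out before ranking, beside 0.03 over all genes. *Hes1*, the repressor that is the best known Notch target, was at 52.8, 117, 117, 70.4 and 64.2 CPM in the high lines and at 28.0, 61.3, 45.8, 36.5 and 20.7 CPM in the low lines. DKO102.4 thus exceeded DKO241, and the log2 fold change was 1.19 (SE 0.33, limma adjusted p = 0.253). *Trib2*, a pseudokinase, was at 30.7 to 169 CPM against 8.16 to 61.7 CPM (1.88, SE 0.58, limma adjusted p = 0.282).

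*Myc* and *Lef1* did not separate the groups. The authors name *Myc* as a Notch1 target in many T cell leukemias. For *E2a*-/- leukemias they instead name *Lef1* as a gene that Notch1 regulates. *Myc* was at 306 to 426 CPM in the high lines and at 322 to 565 CPM in the low lines (-0.14, SE 0.17, limma adjusted p = 0.755). *Lef1*, at 668 to 1558 CPM in the 6 *E2a*-/- lines other than SKO132, was at 1277 and 1094 CPM in the *E2a*-/- lines SKO163.5 and SKO156.6, at 121 to 210 CPM in the high DKO lines, at 103 to 173 CPM in the low DKO lines and at 59.0 CPM, the lowest of the 15 lines, in SKO132. Its genotype-adjusted log2 fold change of 1.33 (SE 0.64) became 0.36 (SE 0.23) with SKO132 left out before ranking.

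*Il2ra* and *Il7r*, the receptor chains of interleukin-2 (CD25) and interleukin-7, were high in the low DKO lines and nearly absent from SKO132. *Il2ra* was at 152, 291, 51.8, 12.4 and 601 CPM in the high lines and at 1484, 1636, 381 and 1372 CPM in the low DKO lines, with 0.827 CPM in SKO132. *Il7r* was at 23.8, 4.53, 0.538, 0.841 and 121 CPM in the high lines and at 253, 197, 216 and 262 CPM in the low DKO lines, with 0 CPM in SKO132. Every low DKO line exceeded every high line for *Il7r*, and every low DKO line exceeded every high DKO line for *Il2ra*. Neither was called in limma over the 10 lines (adjusted p = 0.54 and 0.877) or in the DKO lines alone (-5.19, SE 0.77, adjusted p = 0.0593 for *Il7r*, and -3.66, SE 1.06, adjusted p = 0.228 for *Il2ra*). *Igf1r*, the receptor of insulin-like growth factor 1, was at 14.5 to 30.1 CPM in the high lines, at 41.6 to 67.9 CPM in the low DKO lines and at 8.33 CPM in SKO132. With SKO132 left out before ranking its groups did not overlap, the 1 other Notch target for which this was so.

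Few genes of the pathway's machinery passed any test. Of 6 listed receptors and ligands, 0 passed in limma, edgeR or DESeq2 and 0 had an unadjusted p under 0.05. For *Dlk1* DESeq2 gave no adjusted p with SKO132 among the low lines, and it counts as not passed. Without SKO132, 1 member had an unadjusted p under 0.05, *Dlk1*, which DESeq2 called higher (4.69, DESeq2 adjusted p = 0.0389) and limma did not (1.46, adjusted p = 0.455). There 5.87% of all genes were higher at an unadjusted p under 0.05, and DESeq2 called 1.22% higher. *Notch1* was at 1510, 1231, 2141, 2200 and 1091 CPM in the high lines and at 1251, 1089, 1519 and 1410 CPM in the low DKO lines. Its log2 fold change of 1.77 (SE 0.80, limma adjusted p = 0.408) became 0.18 (SE 0.23) with SKO132 left out before ranking. Of 37 listed genes for processing, the nuclear complex and its regulators, 0 passed in limma or edgeR (2 higher and 1 lower at an unadjusted p under 0.05) and DESeq2 called 1, *Dtx3l*. All genes tested gave 6.41% higher and 6.01% lower at that p, and 1.7% and 1.92% by DESeq2. *Dtx3l*, a Deltex-family ubiquitin ligase, was at 97.5 to 111 CPM in the high lines and at 70.7 to 85.3 CPM in the low lines, and it was the 1 member whose groups did not overlap, beside 1.34% of all genes (0.41, limma adjusted p = 0.119). Without SKO132 its groups overlapped (0.21, limma adjusted p = 0.519) and DESeq2 called 0 of the 37. *Rbpj* was at 96.4 to 161 CPM against 86.3 to 103 CPM, and the E3 ligase gene *Mib1*, which acts on Notch ligands, at 167 to 304 CPM against 276 to 483 CPM (-0.73, limma adjusted p = 0.282).

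In the pre-TCR and TCR signalling list, SKO132 was strictly the lowest of the 15 lines for 12 of 26 listed genes, beside 8.76% of all genes tested. Over the 10 lines 0 of the 26 passed in limma or edgeR, 7 higher and 3 lower had an unadjusted p under 0.05, and DESeq2 called 3 higher (*Lck*, *Cd3e* and *Cd6*) and 2 lower (*Syk* and *Rag2*), beside 6.41% and 6.01% of all genes at that p and 1.7% and 1.92% by DESeq2. Without SKO132 DESeq2 called 2 higher (*Lck* and *Cd3e*) and 3 lower (*Syk*, *Rag2* and *Rag1*), beside 1.22% and 1.51% of all genes. The list's median log2 fold change was 0.44, and 0.06 with SKO132 left out before ranking. *Lck*, the kinase that starts TCR signalling, was at 972, 1261, 1192, 847 and 893 CPM in the high lines and at 539, 873, 652, 597 and 320 CPM in the low lines (0.93, limma adjusted p = 0.203, and 0.58 without SKO132). *Cd3e* was at 340 to 618 CPM against 184 to 419 CPM (0.80, limma adjusted p = 0.149). *Nr4a1*, an early gene of TCR stimulation, was at 5.38 to 34.2 CPM against 0 to 5.41 CPM (2.28, limma adjusted p = 0.245), and DKO713 lay just above SKO156.6. *Cd6*, a co-receptor, was at 62.8, 14.2, 77.7, 17.2 and 0.276 CPM against 0.115, 7.04, 5.31, 1.26 and 0.772 CPM (2.83, limma adjusted p = 0.346).

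In the DKO lines alone, 2 of these 26 genes passed, both lower in the high lines: *Syk* and *Rag2*, a subunit of the recombinase that assembles TCR genes. Among all genes 0.191% were called lower there. *Rag2* was at 2.5, 4.95 and 2.52 CPM in the high DKO lines and at 94.7, 35.0, 46.2 and 68.8 CPM in the low DKO lines (-3.79, SE 0.38, limma adjusted p = 0.0143). The *E2a*-/- high lines had 44.2 and 51.6 CPM, in the range of the low DKO lines, and SKO132 had 0.165 CPM, so that over the 10 lines the log2 fold change was -1.22 (SE 1.38, limma adjusted p = 0.73). *Rag1*, the other subunit, was at 648, 228 and 374 CPM in the high DKO lines, at 1139.7 to 2228 CPM in the low DKO lines and at 224 CPM in SKO132. *Rasgrp1*, an activator of Ras downstream of the TCR, was at 240 to 328 CPM in the high DKO lines and at 429 to 1028 CPM in the low DKO lines. *Rag1* and *Rasgrp1* did not overlap there and did not pass the threshold. Of the 26 genes, 4 higher (*Cd3e*, *Cd247*, *Cd6* and *Nr4a1*) and 5 lower, *Cd28* among them, did not overlap there. The shares over all genes were 7.71% higher and 5.77% lower.

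Of 11 listed markers of immature thymocytes, 0 passed in limma or edgeR (3 higher and 0 lower at an unadjusted p under 0.05) and DESeq2 called 2 higher. For this list and the next, the shares over all genes were 6.41% higher and 6.01% lower at that p. By DESeq2 they were 1.7% and 1.92%, and 1.22% and 1.51% without SKO132. *Cd24a*, a surface marker that falls with maturation, was at 432 to 832 CPM in the high lines and at 174 to 447 CPM in the low lines (1.18, limma adjusted p = 0.17). *Kit*, the receptor CD117 of early progenitors, was at 30.6, 173, 29.8, 69.6 and 23.3 CPM in the high lines and at 0.115, 0.293, 0.193 and 18.5 CPM in the low DKO lines, but at 104 CPM in SKO132. Its groups did not overlap once SKO132 was left out before ranking (4.88, SE 0.84, limma adjusted p = 0.114), and DESeq2 then called it higher (5.12, DESeq2 adjusted p = 0.0366) beside *Hes1* and *Cd24a*, the members it called over the 10 lines. Of 18 markers of DP and SP thymocytes, which carry CD4, CD8 or both, 0 passed in limma or edgeR (2 higher and 1 lower at an unadjusted p under 0.05) and DESeq2 called 2 higher, *Ccr4* and *Slamf1*, and without SKO132 *Ccr4* alone. The chemokine receptor gene *Ccr4* was at 21.3 to 135 CPM against 3.34 to 16.4 CPM, without overlap (2.09, limma adjusted p = 0.246, and 1.82 without SKO132, also separated). The homing receptors *Ccr9* and *Itgae*, the members with the largest log2 fold changes, overlapped at 4.62 to 447 against 3.36 to 38.5 CPM (2.39, limma adjusted p = 0.433) and at 0.743 to 180 against 0.0526 to 4.55 CPM (2.64, limma adjusted p = 0.421). For *Itgae* DESeq2 gave no adjusted p over the 10 lines, and it counts as not passed. *Cd4* and *Cd8a* also overlapped, at 0.412 to 36.3 against 1.16 to 14.8 CPM and at 0.828 to 144 against 8.26 to 299 CPM.

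Of 27 T-lineage transcription factors, 0 passed in limma or edgeR (3 higher and 0 lower at an unadjusted p under 0.05) and DESeq2 called 1 higher (*Gfi1*) and 1 lower (*Runx2*), and without SKO132 2 others, both higher (*Ikzf2* and *Bcl11b*). For these and the progenitor factors below, 6.41% of all genes were higher and 6.01% lower at that p. DESeq2 called 1.7% and 1.92% of all genes, and 1.22% and 1.51% without SKO132. *Zfp36l2*, an RNA-binding protein on this list, was at 235 to 304 CPM in the high lines and at 31.5 to 226 CPM in the low lines, without overlap (1.28, limma adjusted p = 0.278). Without SKO132 it overlapped, with 439 CPM in SKO95 (0.23, limma adjusted p = 0.752). *Tcf7*, which encodes TCF1, was at 1997 to 3624 CPM against 2034 to 3133 CPM. *Ikzf1*, which encodes Ikaros, was at 80.6 to 1257 CPM in the high lines and at 280 (DKO548), 2.98 (DKO102.4), 589 (DKO713), 648 (DKOTu3) and 3.86 (SKO132) CPM in the low lines. Of the progenitor and oncogenic factors 7 of 23 were listed, 0 passed in limma or edgeR (1 higher and 1 lower at an unadjusted p under 0.05) and DESeq2 called 1 higher, *Lmo1*, which was at 11.6 CPM in SKO163.5 and 0 CPM in the other 9 lines compared (0.51 in limma, adjusted p = 0.756). The middle line SKO115.2 had 11.8 CPM of *Lmo1*, and the other middle lines 0 CPM. Without SKO132 DESeq2 called *Lmo1*, *Kit* and *Nfe2*, all higher. *Gfi1b*, a transcriptional repressor that acts in the erythroid and megakaryocyte lineages, was at 0.106 to 7.34 CPM against 1.21 to 13 CPM (-1.70, limma adjusted p = 0.356). *Tcf4*, another E protein, was at 0.207 CPM in SKO156.6, at 30.3 to 78.6 CPM in the other high lines and at 41.5 to 141 CPM in the low lines.

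Of the 28 MYC and growth genes, 0 passed in limma or edgeR, 2 higher and 6 lower had an unadjusted p under 0.05, and DESeq2 called 2 lower. The shares over all genes were 6.41% higher and 6.01% lower at that p, and 1.92% lower by DESeq2. The median log2 fold change of this list was -0.14, and its groups did not overlap for 3 members (beside 1.28% of all genes), all lower in the high lines. These were *Hspd1*, a mitochondrial chaperone (390 to 629 CPM against 681 to 990 CPM), *Odc1*, the rate-limiting enzyme of polyamine synthesis (153 to 228 CPM against 239 to 291 CPM), and *Ncl*, the nucleolar protein nucleolin (1637 to 2563 CPM against 2599.5 to 3296 CPM). Their log2 fold changes were -0.65, -0.40 and -0.39, with limma adjusted p of 0.228, 0.263 and 0.356. Without SKO132 *Hspd1* and *Ncl* still did not overlap, *Odc1* did, and DESeq2 called 0 of the list.

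Of 28 DNA replication and mitosis genes, 0 passed in limma or edgeR (4 higher and 1 lower at an unadjusted p under 0.05) and DESeq2 called 1 higher, *Mcm7*, a subunit of the replicative helicase (761 to 955 CPM against 586 to 739.8 CPM, without overlap, 0.36). For this list and the next ones, 6.41% of all genes were higher and 6.01% lower at that p. DESeq2 called 1.7% and 1.92% of all genes, and 1.22% and 1.51% without SKO132. Without SKO132 *Mcm7* overlapped (0.20, limma adjusted p = 0.537) and DESeq2 called 0 of the 28. Of 22 listed genes of PI3K and interleukin-7 signalling, 0 passed in limma or edgeR (3 higher and 2 lower at an unadjusted p under 0.05) and DESeq2 called 1 higher (*Jak3*) and 1 lower (*Inpp5d*), and without SKO132 2 lower (*Akt1* and *Inpp5d*). *Akt1*, the kinase downstream of PI3K, was at 162.8 to 228 CPM against 229 to 306 CPM, without overlap and by less than 1 CPM between SKO156.6 and SKO132. *Inpp5d*, which encodes the lipid phosphatase SHIP, was at 28.2 to 85.6 CPM against 74.6 to 147 CPM (-1.15, limma adjusted p = 0.228). Of 20 listed interferon-stimulated and MHC class I genes, 0 passed in limma or edgeR (4 higher and 0 lower at an unadjusted p under 0.05) and DESeq2 called 1 higher, *Psmb8*, a subunit of the immunoproteasome (183 to 478 CPM against 99.6 to 168 CPM, without overlap). Without SKO132 *Psmb8* overlapped (0.66, limma adjusted p = 0.465) and DESeq2 called *Tap2* in its place. *Mx1*, an antiviral GTPase, was at 298 CPM in SKO132 and 0.338 to 26.0 CPM in the other 9 lines of the comparison.

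**Figure D5:**
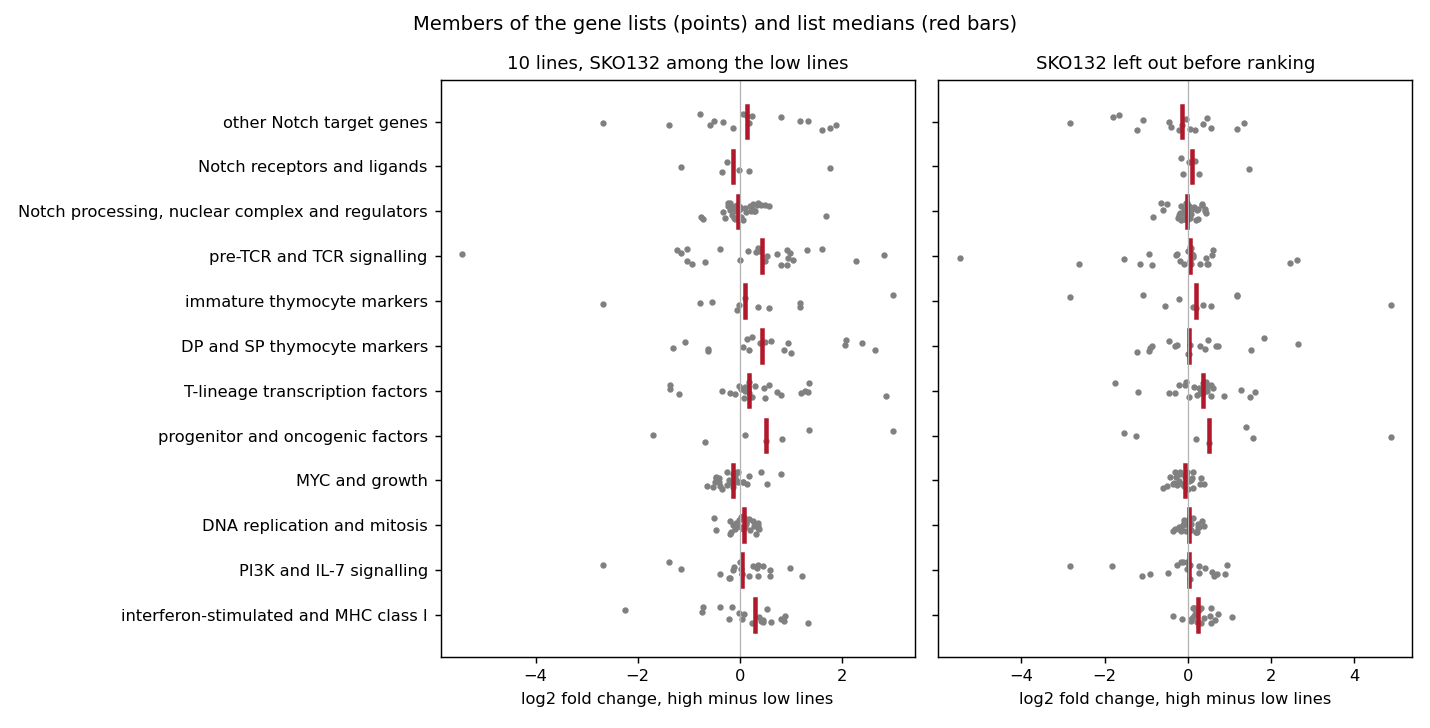
log2 fold change (high minus low lines, x axis) of the listed members of 12 gene lists (points) with the list median (red bar), with SKO132 among the low lines (left) and with SKO132 left out before ranking (right). The median of the pre-TCR and TCR list is 0.44 on the left and 0.06 on the right, and that of the DP and SP markers 0.44 and 0.03.

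The 5 lines between the groups were not used in the fit. Their mean lay between the means of the 2 groups for 236 of the 329 genes whose groups did not overlap (71.7%), against 39.9% of all genes. Those 329 genes were selected for separated groups, which leaves a gap for the mean to fall in. The higher share is therefore no separate support. The mean of the middle lines also lay between the groups for 10 of the 12 genes with the lowest p named above, selected in the same way. The exceptions were *Znrf3*, whose mean in the middle lines was below that of the high lines, and *BC035044*, with 82.8 CPM in SKO95. Single middle lines often took one level or the other, as *Ube2q2* did.

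Across all 15 lines, the genes whose log2(CPM + 1) was most like the score (Pearson's r) were *Dnmt3a* (0.95), *Ptprf* (0.95), *Cenpo* (0.95), *Skap1* (0.94) and *Fundc2* (0.94), and among those most unlike it were *Dnajc6* (-0.97), *Serpinh1* (-0.96), *Serinc3* (-0.94) and *Mmp14* (-0.93). The size of r was lower over the 14 lines without SKO132 for each of these 9 genes. The DNA methyltransferase gene *Dnmt3a* was at 0.276 CPM in SKO132 and at 86.8 to 240.5 CPM elsewhere, and its r over the other 14 lines was 0.33. *Fundc2* had 0 reads in SKO132 and 61.8 to 128 CPM elsewhere, with an r of -0.045 over 14 lines. Of these 9 genes only *Serinc3*, a membrane protein at 685 CPM in SKO132 and 63.1 to 207 CPM elsewhere, kept an r beyond 0.8 in size (-0.82). Over the 14 lines the strongest values were 0.86 for *Tmem39b* and 0.84 for *Kctd7*, and -0.89 for *Syk*, -0.89 for *Aebp2* and -0.89 for *Bace1*. These are descriptions of 14 lines, and each gene shares its library with the score.

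Some differences lay along whole chromosomes. The median log2 fold change of the 785 genes tested on chromosome 5, where *Dtx1* lies, was 0.11 and that of the 1081 genes on chromosome 11 was 0.10, with 0.18 and 0.17 in the DKO lines alone. In DKO241, the line with the highest score, the median gene stood 0.41 above its median over the lines on chromosome 5 and 0.47 above it on chromosome 11 (log2), while the other 14 lines lay between -0.068 and 0.096 on both. On chromosome 14 the median was -0.19 over the 10 lines and -0.039 with SKO132 left out before ranking, and SKO132 itself stood at 0.48 there, as did SKO137.1, a middle line, while DKO548 stood at 0.20. DKO548 also stood at 0.26 on chromosome 1, where the median log2 fold change was -0.083. On chromosome 6 SKO163.5 stood at 0.31, DKO548 at 0.23 and DKOTu3 at 0.16, and the median log2 fold change was -0.055. The part of these shifts in the result of any gene was not tested.

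Markers of other cell types were summed in each line. The 2 listed of 8 B cell markers summed to at most 7.21 CPM in any line, the 3 listed of 10 myeloid markers to 10.6 to 16.7 CPM in the high and 10.7 to 18.9 CPM in the low lines, and none of 7 erythroid markers was listed. The 5 listed markers of NK and innate lymphoid cells summed to 346 to 1415 CPM in the high and 127 to 901 CPM in the low lines. Most of this was *Gzma*, a granule protease, at 316 to 1279.9 CPM against 107 to 589 CPM. The 6 gamma delta T cell markers summed to 2.24 to 294 CPM against 4.03 to 34.3 CPM, and the 5 of stroma and epithelium to 389 to 1190 CPM against 150.2 to 482 CPM, of which the collagen gene *Col1a2* made up 116 to 947 CPM in the high lines and 0 to 315 CPM in the low lines. Over the 10 lines 0 genes of these lists of other cell types passed in limma, edgeR or DESeq2, and 2 members, *Gzma* and *Pecam1*, had an unadjusted p under 0.05, both higher. Among all genes 6.41% were higher at that p. For *Nkg7* and *Pdgfra* DESeq2 gave no adjusted p, and they count as not passed. The groups did not overlap for *Gzma* without SKO132 (1.62, limma adjusted p = 0.296), and DESeq2 called it higher (1.69, DESeq2 adjusted p = 0.00456). There 1.08% of all genes were higher without overlap, and DESeq2 called 1.22% higher. *Col1a2*, *Epcam* and *Pecam1* also had an unadjusted p under 0.05 there, all higher, beside 5.87% of all genes. In the DKO lines alone *Gzma* (2.01) and *Col1a2* (3.40) were higher without overlap, beside 7.71% of all genes. *Itgam* (-0.68) was lower without overlap, beside 5.77%. The part of these other cell types in the results was not tested. Of the 9 T cell markers 0 passed in limma or edgeR, 5 higher and 0 lower had an unadjusted p under 0.05, DESeq2 called 2 higher (*Lck* and *Cd3e*, and *Bcl11b* as well without SKO132), beside 6.41% of all genes higher at that p and 1.7% by DESeq2, and the median log2 fold change was 0.73, or 0.44 with SKO132 left out before ranking. *Cd3d* was at 47.0 CPM in SKO132, at 376 to 613 CPM in the high lines and at 330 to 530 CPM in the other low lines.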

How the data were processed

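RNA-sequencing of total RNA from 15 T cell leukemia lines was analysed, with groups of genotype taken from the labels. The authors trimmed reads with Trimmomatic 0.33, aligned them to mm10 with TopHat2 2.1.0, counted them per Ensembl gene with HTSeq 0.6.1 and made CPM with edgeR. The deposited unit is CPM, without length correction, for 12545 genes, 12172 of them with a symbol. Every CPM value was a whole multiple of 1 read's worth (100.0% within 0.01 reads), so the whole read counts behind the deposited values were recovered, giving 4847970 to 21681586 reads per line (median 18817468). Intervals and limits cover counting error only. Of 12172 symbols, 190 had a start within 1 base of GRCm38, so listed positions are given as deposited, without a build, and promoter positions are those of GRCm38.p6.

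The members and gene lists were chosen with earlier results of these data known. Lines were ranked on log2(CPM + 1), and limma 3.58.1 (R 4.3.3, with a mean-variance trend and genotype as a term) compared 12540 genes, leaving out the 5 ranking genes, at an adjusted p under 0.05. A limma p-value sets the difference between groups against the spread between lines, which limma estimates partly from the other genes. It does not allow for the selection of the lines on expression in the same libraries. Alternatives were other rankings, scalings, pseudocounts and filters, each line left out, the score as a covariate, and edgeR 4.0.16 and DESeq2 1.42.0 on the recovered counts. The DKO lines alone, the score over 14 lines, and the count tests without SKO132 were added after seeing the data. limma and edgeR were run on simulated counts, where a limit was set only for the size of change in edgeR. The outcome for limma is not given here. Tables and figures were made in Python 3.11.15.

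Named genes were the ranking genes, the called genes without overlap and with a mean of at least 5 CPM (filled to 6 a direction by lowest p), the 2 members of each list with the largest change and a mean of at least 1 CPM, *Lef1*, *Notch1*, *Hes1*, *Myc* and *Il2ra*, and the 5 genes most like and most unlike the score. Of these, members of small change or level are given by list only, and the other genes in the text were chosen after their values were seen. Some genes are not reported here.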

Additional observations from a re-analysis of the deposited data

Results flagged for a closer look

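In groups of 5 lines, a line was singled out where its gap to the nearest other line, divided by the range of the group, exceeded 0.71, Dixon's 95% critical value. The score, the ranking genes and the genes chosen for likeness to the score were left out, since the lines or the genes were chosen on those values. Of 96 comparisons 16 exceeded it. Chance gives about 1 in 20, but values within a line are not independent and many of the genes were named for the size of their change, so the count is a description. SKO132 accounted for 9 of the 16, all among the low lines. Of Notch and signalling genes, *Notch1* was at 31.3 CPM in SKO132, *Crebbp* at 0.221 CPM, *Dlk1* at 699 CPM and *Mxd4*, a MYC antagonist, at 9.49 CPM (74.1 to 109 in the other low lines). Of T cell genes, *Il7r* was at 0 CPM, *Il2ra* at 0.827 CPM, *Syk* at 0 CPM, *Cd2* at 0.496 CPM (3.68 to 5.82) and *Cd3d* at 47.0 CPM.

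Among the high lines, DKO192.3 stood apart for 2 genes, with *Nt5c2* at 97.4 CPM (126 to 129 in the others) and *Gfi1b* at 7.34 CPM (0.106 to 0.618). SKO156.6 stood apart with *Syk* at 1.93 CPM (0 to 0.0538) and *Tcf4* at 0.207 CPM (30.3 to 78.6), and SKO163.5 with *Usp18*, an interferon-induced protease, at 52.9 CPM (0.207 to 2.47). Some middle lines, outside this comparison, had like values. *Tcf4* was at 0.0948 CPM in SKO186.5 and 1.76 CPM in SKO115.2, and at 24.6 to 111 CPM in the other middle lines. *Usp18* was at 124 CPM in SKO115.2 and 20.7 CPM in SKO95, and at 0.332 to 0.871 CPM in the others. *Syk* was at 0.0622 to 20.2 CPM in the middle lines. Among the low lines, DKO713 stood apart with the kinase gene *Blk* at 1.84 CPM (0 to 0.0978) and DKOTu3 with *Col1a2* at 0 CPM (168 to 315).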

How the results depend on the processing

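Over the 10 lines limma called 0 higher and 2 lower genes. Higher and lower counts were 1 and 3 with SKO132 left out before ranking, 195 and 255 with the score as a covariate over 15 lines, 8 and 40 with it over 14 lines, 3 and 7 with ranking genes scaled, 213 and 241 by DESeq2, and 7 and 24 in the DKO lines alone. They were 0 and 0 with *Heyl* or *Dtx1* left out of the ranking, 2 and 4 without *Notch3*, 2 and 2 without *Nrarp* and 3 and 3 without *Ptcra*. Neither *Ube2q2* nor *Sh3rf3* was called without *Heyl*, *Notch3*, *Dtx1* or *Nrarp* or with the score over 15 lines. Array weights gave 12 lower genes, a pseudocount of 2 gave 1, and an adjusted p under 0.01 gave 0. Leaving out 1 line gave 0 to 4 higher genes (4 without SKO156.6) and 0 to 23 lower genes (23 without SKO132, 0 without DKO241 or DKO79.9). With SKO132 left out before ranking, DESeq2 called 153 higher and 189 lower genes and edgeR 1 and 2. The cause was not tested. No paired analysis was possible because each line is a separate leukemia and replicate numbers do not link lines of the 2 genotypes.

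Of 1763 values of 57 named genes, 1653 kept their direction and side of the threshold and 21, in 11 genes, changed sign. Another 67 passed the threshold only in the alternative, and 22 no longer passed it. Only 2 of the 57 genes passed in the main fit, so for the others keeping the side mostly meant staying uncalled. The 22 lost calls could come only from these 2 genes. With the score over 15 lines the log2 changes per SD of the score were 0.45 for *Il7r*, -0.43 for *Kit* and 0.998 for *Il2ra*, and over 14 lines 0.61 for *Dlk1*, -0.11 for *Crebbp* and -0.034 for *Mxd4*. With SKO132 left out before ranking the log2 fold change was 1.46 for *Dlk1*, -0.034 for *Crebbp* and -0.045 for *Fundc2*. *Dlk1* was at 0.18 with array weights, 1.25 in edgeR and 1.61 in the DKO lines alone, where *Fundc2* was at -0.066. Without *Ptcra* in the ranking *Il2ra* was at 0.38, and without *Dtx1* *Mx1* was at 0.034, *Usp18* at -0.34, *Tcrg-C4* at -0.24 and *Blk* at -0.23. With 1 line left out the log2 fold change ranged from -2.31 to 1.61 for *Dlk1*, from -3.66 to 0.65 for *Il2ra* and from -0.066 to 2.16 for *Fundc2*. Depth limits weakly expressed genes most in DKO79.9, where 3 reads equal 0.618 CPM.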
